A study of Mus musculus with 8 samples.

Results

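The genes examined were *Th*, *Ddc*, *Slc18a2*, *Slc6a3* and *Nr4a2*, which mark dopamine neurons, and *Prlr*, the prolactin receptor. They were chosen by name, and every probe whose RefSeq accession mapped to these genes was taken. That gave 10 probes among 55681 on the array and 6 genes among 20284 named ones, with 2 probes each for *Ddc*, *Slc18a2*, *Nr4a2* and *Prlr* and 1 each for *Th* and *Slc6a3*. The RNA came from the arcuate nucleus (Arc), ventromedial hypothalamus (VMH), dorsomedial hypothalamus (DMH) and lateral hypothalamus (LH), which were cut from brain sections with a laser. All groups were female C57BL/6 mice (C57BL/6J in the methods), 3 months of age, with no treatment, transgene or mutant allele given for any of them. Each nucleus had 2 arrays, 8 in all, and the methods name 2 mice for the dissections without tying an array to a mouse, so p-values measure the spread between these samples only. The microdissected RNA was amplified before labelling.

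Dopamine is made from tyrosine in 2 steps. Tyrosine hydroxylase (*Th*) makes L-DOPA with the cofactor tetrahydrobiopterin, and aromatic L-amino acid decarboxylase (*Ddc*) turns L-DOPA into dopamine. The vesicular monoamine transporter (*Slc18a2*) loads it into vesicles, and the dopamine transporter (*Slc6a3*) takes released dopamine back up. *Nr4a2* (Nurr1) is an orphan nuclear receptor known for its role in midbrain dopamine neurons. In the Arc, tuberoinfundibular dopamine neurons release dopamine at the median eminence, where it reaches the pituitary and holds back prolactin secretion. Prolactin acts on these neurons through its receptor, a cytokine receptor that signals through JAK2 and STAT5 and induces SOCS proteins as feedback inhibitors.

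In the RefSeq annotation of GRCm38.p6, *Th* lies at chr7:142892779-142899995, *Ddc* at chr11:11814101-11898144, *Slc18a2* at chr19:59260878-59296012, *Slc6a3* at chr13:73536128-73578672, *Nr4a2* at chr2:57106830-57124003 and *Prlr* at chr15:10177238-10349190. The promoter table held 9 starts for the 6 genes, 2 of them for *Ddc* and 3 for *Prlr*. The letters of 4 elements were searched from 250 bases before each start to 10 bases from it: AAAGGTCA, the NBRE bound by the Nr4a family, TGACGTCA, the cyclic AMP response element, TTCNNNGAA, a STAT element, and TGANTCA, an AP-1 element. NBRE was read on both strands, the other 3 read the same on either strand, and no match overlapped that of another element. The promoters of the vesicle loader and of the enzymes are shown because *Th* and *Slc18a2* were both lowest in the VMH and shared an element, with the promoter of *Slc6a3*, which was near background outside the Arc, beside them. All 4 are printed 5′ to 3′ along the gene with the matched letters in capitals, at chr7:142899986-142900245 (minus strand) for *Th*, chr19:59260628-59260887 (plus strand) for *Slc18a2*, chr11:11898135-11898394 (minus strand) for the first start of *Ddc* and chr13:73536497-73536756 (plus strand) for *Slc6a3*.
Th promoter: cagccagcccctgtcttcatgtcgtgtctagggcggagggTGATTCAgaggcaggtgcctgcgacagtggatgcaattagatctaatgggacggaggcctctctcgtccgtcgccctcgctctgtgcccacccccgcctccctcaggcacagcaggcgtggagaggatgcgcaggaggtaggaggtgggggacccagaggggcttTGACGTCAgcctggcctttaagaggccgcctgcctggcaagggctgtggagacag
Slc18a2 promoter: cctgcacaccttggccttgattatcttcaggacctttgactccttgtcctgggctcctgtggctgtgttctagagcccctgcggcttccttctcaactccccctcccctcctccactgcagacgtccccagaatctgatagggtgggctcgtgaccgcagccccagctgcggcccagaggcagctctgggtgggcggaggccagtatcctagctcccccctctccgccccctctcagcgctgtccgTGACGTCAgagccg
Ddc promoter: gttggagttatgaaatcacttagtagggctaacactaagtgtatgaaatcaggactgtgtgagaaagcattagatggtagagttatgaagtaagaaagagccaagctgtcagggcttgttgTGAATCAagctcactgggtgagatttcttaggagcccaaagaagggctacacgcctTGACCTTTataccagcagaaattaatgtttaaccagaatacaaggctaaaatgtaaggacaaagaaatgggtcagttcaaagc
Slc6a3 promoter: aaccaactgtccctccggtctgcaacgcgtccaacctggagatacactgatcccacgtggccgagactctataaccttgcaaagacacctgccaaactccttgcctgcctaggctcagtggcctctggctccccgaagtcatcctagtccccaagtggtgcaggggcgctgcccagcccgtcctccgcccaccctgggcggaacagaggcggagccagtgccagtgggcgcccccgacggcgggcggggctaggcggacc

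The cyclic AMP response element stood at -45 to -38 in the *Th* promoter, counted from -1 as the base before the start, and spanned the start from -4 to 4 in that of *Slc18a2*. It occurred in 549 of 32851 promoters of the same length, or 1.67%. The NBRE letters were found on the opposite strand at -73 to -66 in the first *Ddc* promoter, and 1.39% of promoters held them. AP-1 letters lay at -210 to -204 in *Th*, at -129 to -123 in *Ddc* and at -20 to -14 at the third start of *Prlr*, and the STAT letters at -110 to -102 at its second start, against shares of 7.03% and 7.33% of all promoters. None of the 4 elements was found in the windows of *Slc6a3*, *Nr4a2*, the other *Ddc* start or the first *Prlr* start. A match of letters shows neither binding nor use.

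Each array held 59305 spots, and 47.1% to 52.7% of them were well above background, the mark that the scanner software gives a spot that stands clear of its background. Signals are given after division of each array by its 75th percentile, which ran from 815 to 1239 before scaling. Defining genes were checked against the labels. *Agrp*, *Npy*, *Pomc*, *Kiss1* and *Ghrh* exceeded all 3 other nuclei in the Arc (adjusted p under 0.05 by limma), and the 3 VMH markers were highest in the VMH. All 4 DMH markers had their highest mean in the DMH and 3 passed the F-test. *Npvf* did not (adjusted p = 0.0769) and stood above background on VMH array 1 (438) and LH array 1 (406) as well, and *Grp* and *Prdm13* did on LH array 1. *Hcrt*, a marker of the LH, was also bright in the DMH, with a mean of 53611 against 111361 in the LH. Arrays of a nucleus correlated at 0.938 (LH) to 0.981 (Arc) over the probes tested, and LH array 2 correlated with DMH array 2 at 0.954. Summed signals of 6 oligodendrocyte markers ran from 11760 to 19050 on the Arc arrays and from 103220 to 106770 on the LH arrays, with 6 of 6 lower in the Arc than in the LH. Those of 6 tanycyte and ependymal markers ran from 6207 to 6405 in the Arc and from 1565 to 3679 elsewhere, with *Rax* above all 3 other nuclei in the Arc and *Foxj1* well above background on no array. Of 7 anterior pituitary markers, *Prl*, *Gh*, *Tshb* and *Pitx1* were well above background on no array, while *Cga* was on Arc array 1 only (1425, against 28.6 on Arc array 2), and the sums of 42107 to 43326 in the Arc came mostly from *Pomc*, which arcuate neurons also express. Of 5 neuron markers, *Rbfox3* was lower in the Arc than in the VMH (log2 difference -1.88, adjusted p = 0.00795) and 2 were lower than in the LH, with sums of 138410 to 138730 in the Arc and 151590 to 201230 elsewhere. Of 5 astrocyte markers, *Gfap* was higher in the Arc than in the VMH (1.95, adjusted p = 0.0124) and 1 was lower than in the LH, with sums of 15123 to 20176 in the Arc and 17021 to 26243 elsewhere. Of 7 choroid plexus markers, *Kcne2*, *Slc4a5* and *Aqp1* were well above background on no array, 2 were higher in the Arc than in the VMH, *Ttr* among them (2.56, adjusted p = 0.0168), and 3 than in the LH, with sums of 3139 to 3300 in the Arc, 4324 to 5013 in the VMH and 1546 to 1833 in the LH. The part of these cell types in the results was not tested.

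All 10 probes passed the filter for testing, which asks that both arrays of some nucleus stand well above background, and 6 did so on all 8 arrays. Of the 10, 7 differed among the nuclei by limma's F-test at an adjusted p under 0.05, with every gene represented, beside 8.34% of the 28896 probes tested. Both Arc arrays lay above all 6 others for 9 of the 10 probes, beside 8.65% of all probes. A probe is called Arc-high here where the Arc exceeded the VMH, the DMH and the LH with an adjusted p under 0.05 in all 3 comparisons. Arc-high probes numbered 2 of 10 (*Slc6a3* and 1 probe of *Nr4a2*), beside 0.339% of all probes. Both passed the filter through the Arc alone, and none of the 6 probes measured on all 8 arrays was Arc-high (3 at unadjusted p under 0.05 by limma). Leaving out Arc array 1, Arc array 2 or VMH array 1 lowered the 7 to 3, 3 and 4, and leaving out either array of the Arc or the DMH lowered the 2 to 1 by removing the *Nr4a2* probe.

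The number of probes that differed varied between pairs of nuclei. Arc exceeded VMH for 5 probes (2.4% of all probes), DMH for 2 (0.533%) and LH for 9 (3.33%). Signal was higher in the DMH than in the VMH for 4 probes (0.945% of all probes), in the LH than in the VMH for 1 (3.04%) and in the DMH than in the LH for 1 (0.26%). No probe of these genes was lower in the Arc than in the VMH, DMH or LH, where 3.52%, 0.727% and 6.02% of all probes were, and without adjustment none had a p under 0.05 in that direction either. The median log2 difference over the 10 probes was 2.92 for Arc minus VMH, 1.28 for Arc minus DMH and 2.21 for Arc minus LH, beside 0.01, 0.02 and 0.05 over all probes tested. In RNA from all cells of a microdissected nucleus, fewer cells of a type and less RNA per cell cannot be told apart.

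**Figure D1:**
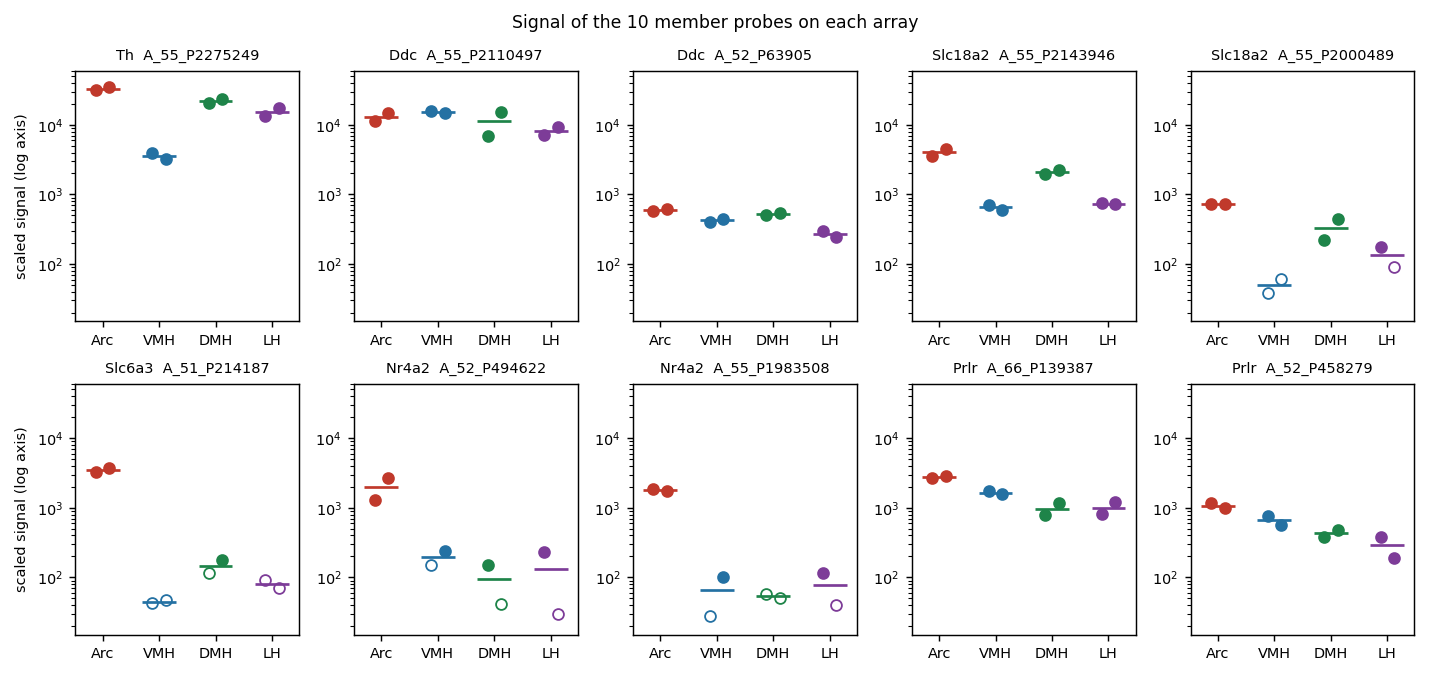
Scaled signal (log axis) of the 10 probes on each array, by nucleus. Each point is 1 array, filled where the probe was well above background and open where it was not, and each line is the mean of 2 arrays. *Slc6a3* and both *Nr4a2* probes drop to or near background outside the Arc, while *Th* drops most in the VMH and stays bright in the DMH and LH.

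Tyrosine hydroxylase, the enzyme of the first step, was brightest in the Arc and strong in 3 of the 4 nuclei. *Th* gave 31311 and 34984 in the Arc, 20687 and 23366 in the DMH, 13167 and 17263 in the LH, and 3899.9 and 3242 in the VMH. The 4 nuclei did not overlap, and the VMH stood well below the other 3 while remaining well above background on both arrays. Arc exceeded VMH 9.31-fold (log2 difference 3.22, SE 0.23, adjusted p = 0.000966 by limma) and LH 2.20-fold (1.13, adjusted p = 0.0268). DMH and LH exceeded VMH 6.18-fold and 4.24-fold (adjusted p = 0.00327 and 0.00559). Of the neighbours in this order, the LH and VMH differed, while the others were not told apart, with 0.59 between Arc and DMH (95% interval 0.05 to 1.13, adjusted p = 0.406) and 0.54 between DMH and LH (adjusted p = 0.32). The call between Arc and LH was lost without either Arc array, either DMH array or LH array 1 (adjusted p up to 0.137), without scaling (0.103), without the filter (0.0585) and from the arrays of the 2 nuclei alone (0.104), while those of the VMH against the Arc, DMH and LH were kept without any 1 array.

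*Ddc*, the decarboxylase of the second step, which serotonin neurons and other cells also use, did not follow *Th*. Its bright probe A_55_P2110497 gave 11246 and 14556 in the Arc, 15638 and 14764 in the VMH, 6975 and 15409.8 in the DMH, and 7112 and 9376 in the LH. The 2 DMH arrays spanned nearly the whole range of the others and differed more from each other than the means of the nuclei did (F-test adjusted p = 0.416 by limma). In the VMH, where *Th* was lowest, this probe stood at 118% of its Arc mean (log2 difference -0.25 for Arc minus VMH, 95% interval -1.15 to 0.66). The other probe, A_52_P63905, which is assigned to another transcript of the gene, gave 586 and 608 in the Arc, 405 and 441 in the VMH, 511 and 549.5 in the DMH, and 298 and 248 in the LH. It differed among the nuclei (F-test adjusted p = 0.0418) and was 2.20-fold higher in the Arc than in the LH (adjusted p = 0.0171), which was lost without either Arc array, without scaling (0.158) and from the arrays of the 2 nuclei alone (0.0895). The difference between the 2 probes was not tested.

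*Slc18a2*, the vesicular transporter, followed *Th* in its low VMH signal, and its 2 probes gave the same order of nuclei at the top. Probe A_55_P2143946 gave 3524 and 4564 in the Arc, 1983 and 2275 in the DMH, 747 and 729.9 in the LH, and 715 and 595 in the VMH. No DMH array reached the Arc arrays, and the LH and VMH lay together below both. Arc exceeded VMH 6.15-fold (log2 difference 2.62, SE 0.22, adjusted p = 0.00181 by limma) and LH 5.43-fold (adjusted p = 0.00218), and DMH exceeded VMH 3.26-fold (adjusted p = 0.014) and LH 2.88-fold (adjusted p = 0.039). Arc and DMH were not told apart (0.92, 95% interval 0.39 to 1.44, adjusted p = 0.142), nor were LH and VMH (adjusted p = 0.686). The call of DMH over LH did not stand without the filter, from the arrays of the 2 nuclei alone or with the replicate number as a block. DMH over VMH was lost without any 1 array of the VMH or DMH (adjusted p up to 0.105), and DMH over LH without any 1 array of the Arc, VMH or DMH (up to 0.177).

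The dimmer *Slc18a2* probe, A_55_P2000489, gave 732 and 729 in the Arc, 219.5 and 439.6 in the DMH, 176 and 91.5 in the LH, and 38.6 and 60.6 in the VMH. It was not well above background on either VMH array or on LH array 2. Arc exceeded VMH at least 7.03-fold (adjusted p = 0.00491 by limma) and LH 5.76-fold (log2 difference 2.53, or 2.26 with dim signals raised, adjusted p = 0.0177, up to 0.11 without either Arc array), and DMH exceeded VMH at least 2.99-fold (adjusted p = 0.0334, up to 0.213 without any 1 array of the Arc, VMH or DMH and 0.0665 with dim signals raised). The call of DMH over VMH was also lost with the replicate number as a block. Each "at least" ratio sets the brighter nucleus against the lowest signal measured on the dim arrays, or the probe's own signal where that was higher. Values with dim signals raised set each signal under that lowest one to it.

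*Slc6a3*, which carries the transporter that clears released dopamine, was an Arc signal. Probe A_51_P214187 gave 3264 and 3696 in the Arc, 117 and 176 in the DMH, 91.6 and 69.3 in the LH, and 42.8 and 46.7 in the VMH. Outside the Arc it was well above background on DMH array 2 only, and both Arc arrays lay far above the 6 others. Arc exceeded VMH at least 33.4-fold (adjusted p = 0.000258 by limma), LH at least 31.6-fold (adjusted p = 0.000351) and DMH 24.2-fold (log2 difference 4.60, SE 0.27, adjusted p = 0.000841), and leaving out any 1 array kept all 3 calls. With the normexp correction, which adds an offset to every signal, the log2 differences were 3.69 for VMH, 3.14 for LH and 3.02 for DMH, all called. DMH was also higher than VMH (adjusted p = 0.029), which was lost without any 1 array of the Arc, VMH or DMH (up to 0.184) and with dim signals raised (0.624). The gene is among those that the study selected as enriched in the Arc on these same arrays, so its call is not independent evidence.

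The DMH thus held 66.5% of the Arc mean of *Th*, 52.7% of that of the brighter *Slc18a2* probe and 4.2% of that of *Slc6a3*. For *Th* and *Slc18a2* the shares were 45.9% and 18.3% in the LH and 10.8% and 16.2% in the VMH, while *Slc6a3* was measured on 1 DMH array and on none of the LH or VMH, so that it has only the bounds above there. Each share is within 1 probe, and the differences between probes in these shares were not tested.

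**Figure D2:**
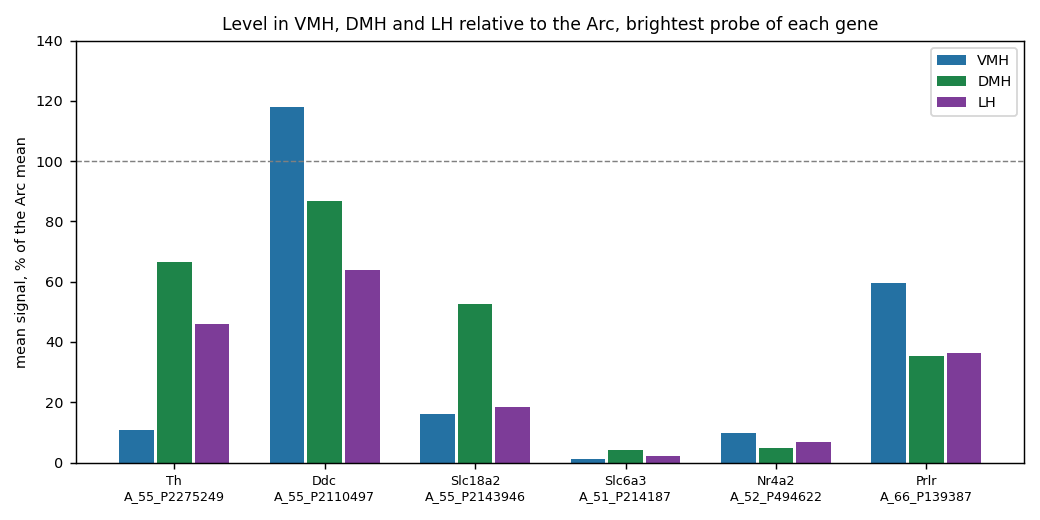
Mean scaled signal in the VMH, DMH and LH as a percent of the Arc mean of the same probe, for the brightest probe of each gene (2 arrays per mean with no error drawn, dashed line at the Arc level). *Th* and *Slc18a2* keep 66.5% and 52.7% in the DMH, *Slc6a3* keeps 4.2%, and *Ddc* reaches 118% in the VMH. The bars of *Slc6a3* in the VMH and LH are signals not well above background, and those of *Nr4a2* and that of *Slc6a3* in the DMH each hold 1 array that was and 1 that was not.

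*Nr4a2*, the nuclear receptor, was bright on both Arc arrays and near background elsewhere. Probe A_55_P1983508 gave 1867 and 1726 in the Arc, 28.3 and 102 in the VMH, 57.7 and 50.8 in the DMH, and 115 and 39.5 in the LH. It was well above background on both Arc arrays, VMH array 2 and LH array 1, and the Arc arrays lay above the 6 others. Arc exceeded VMH by a log2 difference of 5.06 (SE 0.67, adjusted p = 0.00816 by limma), DMH at least 19.2-fold (adjusted p = 0.0192) and LH by 4.73 (adjusted p = 0.00832). The differences from the VMH and LH each rest on 1 array near background, and were 4.01 and 3.86 once dim signals were raised. The calls against VMH and LH were lost without either Arc array (adjusted p up to 0.0679), and that against DMH without either array of the Arc or the DMH (up to 0.144). The study selected this probe as enriched in the Arc on the same arrays.

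The other *Nr4a2* probe, A_52_P494622, gave 1292 and 2687 in the Arc, 153 and 241 in the VMH, 150.0 and 41.2 in the DMH, and 235 and 29.4 in the LH. Both Arc arrays again lay above the 6 others, but the 2 LH arrays differed from each other by about as much as the Arc from the VMH. Its F-test did not pass (adjusted p = 0.076 by limma), and of its comparisons only Arc against LH did (4.49, SE 1.01, adjusted p = 0.0393), which was lost without any array but LH array 1, without the filter (0.0602) and from the arrays of the 2 nuclei alone (0.114). LH array 2 was not well above background, and with dim signals raised this difference was 3.40. On scaled signals, *Slc6a3* and both *Nr4a2* probes had Arc means at least 10-fold above those of all 3 other nuclei, which makes 3 of 10 probes beside 0.111% of all probes. On unscaled intensities 2 of the 10 did, since A_52_P494622 then stood 7.96-fold above the next nucleus. All 3 of these probes passed the filter for testing through the Arc alone. The study had selected *Slc6a3* and A_55_P1983508 on these same arrays, so this count is not independent evidence.

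*Prlr*, through which prolactin acts on dopamine neurons, had clear signal in every nucleus. Probe A_66_P139387 gave 2648 and 2864 in the Arc, 1718 and 1567 in the VMH, 783 and 1158 in the DMH, and 809 and 1191 in the LH. The Arc stood highest and the VMH second without overlap, and the DMH and LH overlapped below them. The F-test passed (adjusted p = 0.0396 by limma), with Arc over LH 2.81-fold (log2 difference 1.49, SE 0.28, adjusted p = 0.022). Arc over DMH was 1.53 (95% interval 0.87 to 2.20, adjusted p = 0.063) and Arc over VMH 0.75 (adjusted p = 0.195), neither past the threshold.

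The other *Prlr* probe, A_52_P458279, gave 1164 and 986 in the Arc, 753 and 562 in the VMH, 382 and 485 in the DMH, and 386 and 192 in the LH. Its order was the same for the Arc and VMH, its F-test just missed (adjusted p = 0.0547 by limma), and Arc over LH was 3.94-fold (adjusted p = 0.0199). For both probes that call was lost without either Arc array (adjusted p up to 0.131) and from the arrays of the 2 nuclei alone (0.08 and 0.0885), and for the first also without scaling (0.0578). With dim signals raised, with the normexp correction, with trended and robust moderation, among probes measured on all 8 arrays, or without either LH array, the first probe also passed for Arc over DMH (lowest adjusted p = 0.0206).

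**Figure D3:**
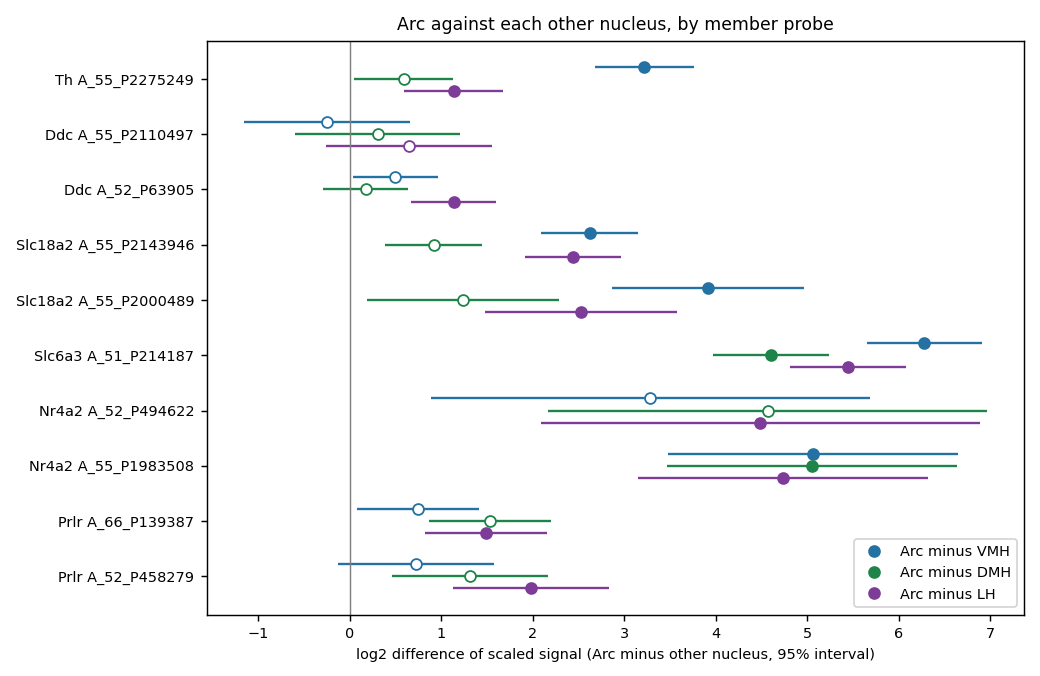
Log2 difference of scaled signal, Arc minus each other nucleus, for the 10 probes, with 95% intervals from the limma fit. Filled points have an adjusted p under 0.05. Differences of *Slc6a3*, *Nr4a2* and *Slc18a2* A_55_P2000489 against nuclei near background are fitted values that rest partly on signals near background. All points but 1 (*Ddc* A_55_P2110497 against VMH) lie above 0, and *Slc6a3* against VMH lies farthest to the right.

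The cofactor of *Th* had an Arc-high enzyme of its own. Of 6 genes of tetrahydrobiopterin synthesis and recycling, 3 differed among the nuclei by the F-test (8.34% of all probes), and 1, *Gch1*, was Arc-high (0.339% of all probes). *Gch1*, the rate-limiting enzyme of the pathway, gave 1834 and 1269 in the Arc, 220.2 and 329 in the DMH, 270.1 and 149.6 in the LH, and 25.7 and 39.2 in the VMH, where it was not well above background. The order of nuclei was that of *Th* at both ends, with the Arc highest and the VMH lowest. Arc exceeded VMH at least 14.7-fold, DMH 5.67-fold and LH 7.59-fold (adjusted p = 0.000948, 0.0368 and 0.00669 by limma), and at least 1 of these calls was lost without any single array of the Arc, VMH or DMH (adjusted p up to 0.236). *Pcbd1*, which recycles the cofactor, was 2.87-fold higher in the Arc than in the VMH (adjusted p = 0.0102) and 2.06-fold higher than in the LH (adjusted p = 0.0297). *Gchfr*, the feedback regulator of *Gch1*, was 3.06-fold higher in the Arc than in the VMH (adjusted p = 0.015), and also 3.33-fold and 3.49-fold higher in the DMH and LH than there (adjusted p = 0.0209 and 0.0124), with means of 367 in the Arc, 396 in the DMH and 417 in the LH. Its signal on VMH array 1 was not well above background. Without scaling, *Pcbd1* and *Gchfr* were not called for Arc over VMH. *Pcbd1* was not called against the LH without scaling, without the filter or from the arrays of the 2 nuclei alone. *Gchfr* was not called for LH over VMH from the arrays of those 2 nuclei alone. The calls of both for Arc over VMH were lost without any 1 array of the Arc or VMH (adjusted p up to 0.0819 and 0.111), those of *Gchfr* for DMH and LH over VMH without either VMH array, the first also without either DMH array (up to 0.147), and that of *Pcbd1* against the LH without any array but LH array 2 (up to 0.157). In the other direction, 1 of the 6, *Qdpr*, was lower in the Arc than in the LH, beside 6.02% of all probes. Its means were 17021 and 53848 (adjusted p = 0.0239 by limma). *Qdpr* regenerates the cofactor, is named after its values were seen, and did not pass the F-test (adjusted p = 0.0667). Without either VMH array, 1 of the 6 genes passed the F-test. The median log2 difference of the list was 0.87 for Arc minus VMH, 0.25 for Arc minus DMH and 0.30 for Arc minus LH.

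Among genes that break down or handle dopamine, none was called higher in the Arc. Of 7, 2 passed the F-test (8.34% of all probes), and none was higher in the Arc than in the VMH, DMH or LH at an adjusted p under 0.05, with medians of -0.22, -0.25 and -0.58. *Sv2c*, a synaptic vesicle protein named after its values were seen, gave 5364 and 6061 in the Arc and at most 3399 elsewhere without passing against any nucleus (lowest adjusted p = 0.0524 by limma), and its dimmer probe passed the F-test. *Aldh1a1*, an aldehyde dehydrogenase found in some midbrain dopamine neurons, had its highest mean in the LH (6583, against 2645 in the Arc), but no pair of nuclei passed (lowest adjusted p = 0.0529 by limma). Neither F-test call of this list held without either array of the Arc, VMH or DMH.

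Among the 5 dopamine receptors, *Drd1*, *Drd4* and *Drd5* were well above background on no array, and only *Drd2*, which serves as receptor and as autoreceptor, was tested. It gave 587 and 792 in the Arc, 288 and 303 in the VMH, 1118 and 914 in the DMH, and 1986 and 1767 in the LH. Like *Th* it was lowest in the VMH, 2.31-fold below the Arc (adjusted p = 0.0303 by limma), but it was highest in the LH, 2.75-fold above the Arc (adjusted p = 0.0124). The call against the VMH did not stand without scaling, without the filter or with the replicate number as a block. That against the LH did not stand from the arrays of the 2 nuclei alone. The first of these calls was lost without any 1 array of the Arc, VMH or DMH (adjusted p up to 0.173), and the second without Arc array 1 (0.0954).

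Of 8 genes of other monoamine cells, 3 could be tested. *Slc6a2*, *Tph1* and *Slc6a4*, which carry the noradrenaline transporter, a tryptophan hydroxylase and the serotonin transporter, were well above background on no array. *Hdc*, which makes histamine, was the 1 called by the F-test (8.34% of all probes) and was lower in the Arc than in the DMH (means 329 and 3514, adjusted p = 0.0165 by limma) and the LH (adjusted p = 0.0341). Its F-test did not pass without VMH array 1 or either DMH array, the call against the DMH was lost without either DMH array (adjusted p up to 0.11), and that against the LH without any array but Arc array 2 or LH array 2 (up to 0.115).

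Of 12 factors of midbrain dopamine neurons, *Pitx3*, *Lmx1a*, *En1* and *Foxa2* were well above background on no array, 5 were tested and 3 passed the F-test, beside 8.34% of all probes. *Foxa1* was measured in the LH only, at 195 and 155, at least 1.54-fold above the Arc (adjusted p = 0.0018 by limma), which was lost with dim signals raised (adjusted p = 0.166). The receptor of the GDNF family, *Ret*, and its partner *Gfra1* were both lowest in the VMH, with *Ret* at least 2.37-fold and *Gfra1* 6.45-fold higher in the Arc (adjusted p = 0.0105 and 0.0126). These 2 calls were lost without Arc array 2 or VMH array 1 for *Ret* (adjusted p up to 0.0835) and without either VMH array for *Gfra1* (up to 0.081). *Ret* had higher means in the DMH (435) and LH (569) than in the Arc (255).

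Of 17 factors of forebrain and olfactory dopamine neurons, 14 were tested and 12 passed the F-test, beside the 8.34% of all probes, while *Meis2*, *Pax6* and *Onecut3* were well above background on no array. *Dlx1*, *Dlx6* and *Dlx2*, which were among those with the smallest p, are homeobox genes of GABAergic neurons, and none was well above background in the VMH. Arc exceeded VMH at least 10.0-fold for *Dlx1*, 3.16-fold for *Dlx6* and 6.16-fold for *Dlx2* (adjusted p = 0.00508, 0.00378 and 0.00453 by limma). None of these 3 separated the Arc from the DMH or LH (lowest adjusted p = 0.436). Of their calls against the VMH, that of *Dlx1* was lost without Arc array 2 (adjusted p = 0.0517). Over the list, 7 genes were higher and 2 lower in the Arc than in the VMH (2.4% and 3.52% of all probes), 2 and 2 against the DMH (0.533% and 0.727%), and 2 and 3 against the LH (3.33% and 6.02%). *Six6*, chosen here after its values were seen as the 1 Arc-high gene of the list, gave 900.1 and 1293 in the Arc and at most 139 elsewhere (adjusted p up to 0.0201 by limma). It passed the filter for testing through the Arc alone, and its Arc-high call was lost without either Arc array or VMH array 2.

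Among the lists of the dopamine and prolactin pathways, prolactin and growth hormone receptor signalling had the most Arc-high genes. Of 12 genes, 9 were tested and 5 passed the F-test, beside 8.34% of all probes. Arc-high genes numbered 4, beside 0.339% of all probes, and *Socs3* among them passed the filter for testing through the Arc alone. *Prl* and *Gh*, the ligands, were well above background on no array. *Stat5a*, which the receptor activates, gave 1350.3 and 1748 in the Arc, 146 and 74.4 in the VMH, 264 and 239 in the DMH, and 503 and 356 in the LH. The Arc arrays lay above the 6 others, with 14.8-fold over VMH, 6.11-fold over DMH and 3.63-fold over LH (adjusted p = 0.00239, 0.0211 and 0.0233 by limma, and up to 0.17 without 1 array). VMH array 2 was not well above background, and with dim signals raised the log2 difference from the VMH went from 3.88 to 3.76.

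3 SOCS feedback inhibitors were Arc-high as well. *Socs3* gave 938 and 1000.4 in the Arc, 112 and 130.5 in the VMH, 48.6 and 23.2 in the DMH, and 62.1 and 31.9 in the LH, with Arc over VMH 8.02-fold (log2 difference 3.00, or 2.94 with dim signals raised, since VMH array 1 was not well above background), over DMH at least 10.4-fold and over LH at least 9.47-fold. *Socs1* gave 1443 and 1460.3 in the Arc and 294 to 409 elsewhere, with 3.80-fold over VMH, 4.59-fold over DMH and 3.97-fold over LH. *Socs2* gave 1972 and 2596 in the Arc and 481 to 679.8 elsewhere, with 3.76-fold, 3.96-fold and 4.32-fold. In each case both Arc arrays lay above the 6 others, and the largest of the 3 adjusted p was 0.0104 for *Socs3*, 0.00554 for *Socs1* and 0.0169 for *Socs2*. *Cish*, the fifth gene past the F-test and named after its values were seen, passed against VMH and LH but not against DMH (adjusted p = 0.0739). Like *Socs3*, it passed the filter for testing through the Arc alone. Neither call of *Cish* stood without scaling or with the replicate number as a block. Without 1 array the adjusted p rose to at most 0.0824 for *Socs3*, 0.0601 for *Socs1*, 0.142 for *Socs2* and 0.197 for the called differences of *Cish*.

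The genes *Jak2*, *Stat5b* and *Stat3* of the same list did not pass the F-test by their brightest probes (adjusted p = 0.307, 0.738 and 0.143 by limma), while the dimmer of 2 *Stat3* probes did. These genes also serve other cytokine receptors, leptin and growth hormone among them. *Ghr*, the growth hormone receptor, was higher in the Arc than in the LH (adjusted p = 0.0283 by limma). It was not called against the VMH or DMH (adjusted p = 0.104 and 0.151) and did not pass the F-test (adjusted p = 0.0723). Leaving out either Arc array brought the 4 Arc-high genes to 0 (5 and 6 genes at an unadjusted p under 0.05 in all 3 comparisons), and leaving out either VMH array or either DMH array to 1 or 2, and LH array 2 to 3.

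**Figure D4:**
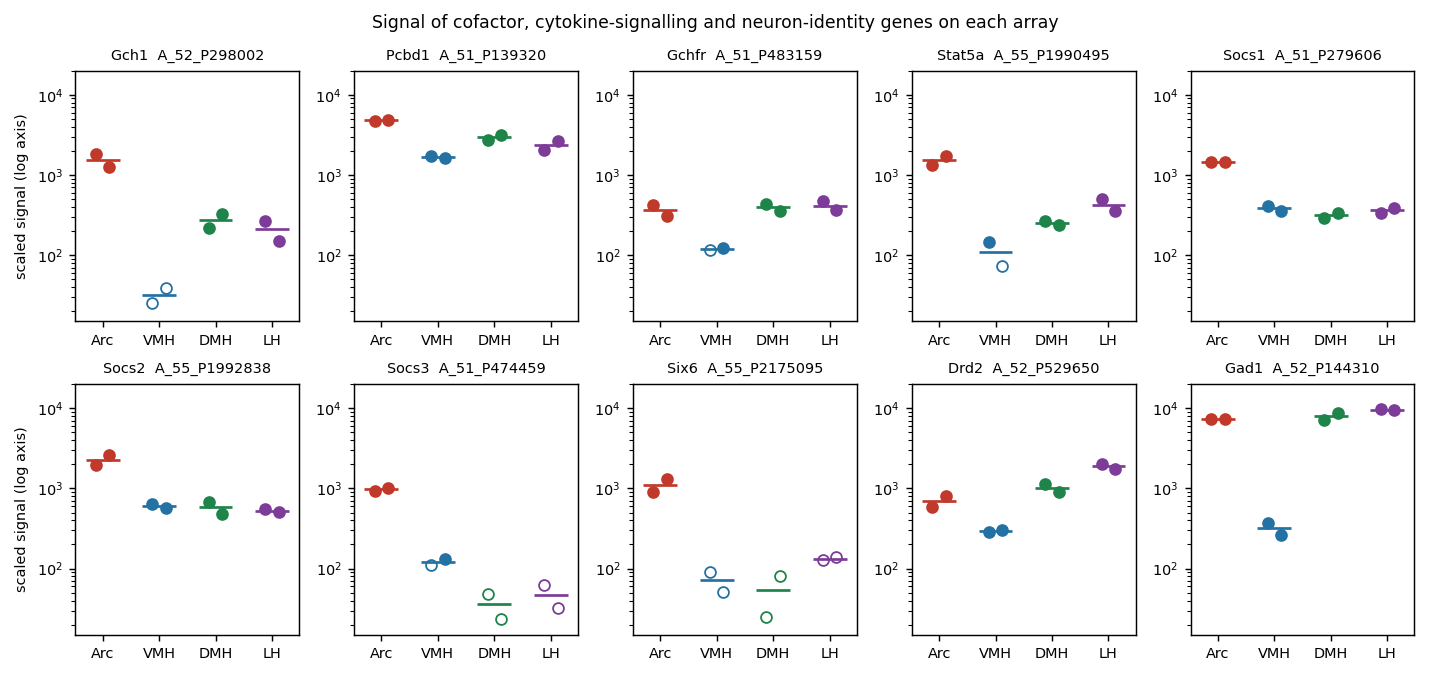
Scaled signal (log axis) on each array of genes of the cofactor, prolactin receptor signalling, neuron factor, receptor and transmitter lists, by nucleus. Points are arrays, filled where the probe was well above background, and lines are means of 2 arrays. *Gch1*, *Stat5a*, *Socs1*, *Socs2*, *Socs3* and *Six6* are highest in the Arc, *Drd2* is highest in the LH, and *Gad1* is low in the VMH alone.

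Transmitters and hormone receptors that arcuate dopamine neurons are known to share were compared last. Of 9 genes, 7 passed the F-test, beside 8.34% of all probes. Of the 9, 5 were higher in the Arc than in the VMH (2.4% of all probes), 1 than in the DMH (0.533%) and 3 than in the LH (3.33%), and none, 1 and 2 were lower (3.52%, 0.727% and 6.02%). *Gad1* and *Gad2*, the enzymes of GABA synthesis, were 23.4-fold and 6.34-fold lower in the VMH than in the Arc (adjusted p = 0.000384 and 0.00343 by limma) and not told apart between Arc and DMH or LH. *Ghrh*, which is made by some of the *Th* neurons, was Arc-high, at 11681 and 15186 against 1902 and 3269.8 in the DMH (5.34-fold, adjusted p = 0.039, up to 0.245 without any 1 array of the Arc, VMH or DMH). *Nts*, the neurotensin gene, was at background in the Arc and at 1291 and 1542 in the LH, at least 12.5-fold higher there (adjusted p = 0.00219).

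Patterns most like each gene were ranked by Pearson correlation of log2 scaled signal over the 8 arrays, which share 4 nuclei, and are given as a description. *Th* was closest to *Calcr* (0.99), the calcitonin receptor, followed by *Asb4*, *Gnas*, *Tac2* and *Tmem176b*. *Calcr* averaged 3960.3 in the Arc, 2727 in the DMH, 1266 in the LH and 192 in the VMH. *Slc18a2* was closest to *Tbx19* (0.99), then *Cand2*, *Stx3*, *Gabre* and *Ogfr*. *Slc6a3* was closest to *Lhfpl1* (0.99), then *Pou2f2*, *Ghsr*, *Gbp6* and *Sox4*, and *Ghsr*, the ghrelin receptor, averaged 1202 in the Arc and 76.8 or less elsewhere. *Prlr* was closest to *Ddx31* (0.985), then *Bend7* and *Pgr*, the progesterone receptor (both 0.97). For the brighter *Nr4a2* probe the first was *Irak2* (0.98) and the fifth *Socs3* (0.95), and for the bright *Ddc* probe *Foxe3* (0.95).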

How the data were processed

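RNA of 4 laser-microdissected hypothalamic nuclei was measured on 8 Agilent 1-color arrays, 2 per nucleus. The authors deposited an intensity for each spot as Feature Extraction gave it, with background and spatial trends removed and very low signals set to a minimum, and without scaling between arrays. The submitters' processing notes name version 11.5.1.1 and the file headers 10.7.3.1. Their series table gives the same intensity as 1 mean per probe. The files hold the red channel, which the methods call Cy5 and the labels Cy3.

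Outlier spots were dropped, spots of a probe averaged, and each array divided by its 75th percentile. Symbols came from RefSeq accessions, through which 26762 of the 28390 probes with one (94.3%) were named. A gene of a list was read by its probe with the highest mean. limma 3.58.1 (R 4.3.3) was fitted to log2 signals of 28896 probes, those for which both arrays of some nucleus stood well above background, with 4 residual and 3.02 prior degrees of freedom, and each p received the Benjamini-Hochberg adjustment over all of them. The number of arrays limits the precision. All probes of the 6 genes are named, with up to 4 called genes per list by the F-test p, the genes measured on no array, and the 5 most correlated genes, except that some list genes are not reported here. The genes and lists were chosen with earlier results of these data known. Alternatives were no scaling, quantile normalization, normexp (offset 50), the series table, other filters, no removal of outlier spots, the replicate number as a block, a floor for dim signals at the lowest measured one, trended and robust moderation, only the 2 nuclei compared, the one-way ANOVA with Tukey-Kramer tests, and leaving out each array.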

Additional observations from a re-analysis of the deposited data

How the results depend on the processing

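The number of arrays and the signal over background set the limits: 2 arrays give each nucleus 1 degree of freedom of its own, and in nuclei near background a ratio is only a bound. Of the 30 differences between the Arc and another nucleus, 16 were called. Of these, 7 stayed called under every alternative that kept the probe but the one-way ANOVA with Tukey-Kramer tests, under which each lost its call, and the same number stayed called whichever array was left out. Over all 588 recomputed differences, 515 kept direction and side of the threshold, 54 lost the call, 16 gained it and 3 changed sign. Recomputed after seeing the data, the 6 called differences of these probes between other nuclei and the 93 of list genes kept their sign throughout, and 1 and 30 of them stayed called under every alternative that kept the probe but the ANOVA. The size of dim differences moved more: with normexp 10 of the 16 called ones shrank by over 1.5-fold, and with dim signals raised 6, all still called. The changes of sign were uncalled *Ddc* differences between Arc and DMH: without scaling (-0.18 for A_55_P2110497 and -0.31 for A_52_P63905) and without DMH array 1 (-0.27 for A_55_P2110497, whose values without 1 array ran up to 0.875). Unscaled, the median of all probes shifted to -0.26 for Arc minus VMH, -0.46 for Arc minus DMH and -0.10 for Arc minus LH.

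By the ANOVA after Benjamini-Hochberg adjustment, 3 of the 10 probes differed among the nuclei (8 at an unadjusted p under 0.05), 529 of all probes (6262 unadjusted), and 0 were Arc-high by the Tukey-Kramer tests (3 of the 10 and 216 of all probes unadjusted). It left 0 genes of the cofactor list (5 unadjusted), 0 of breakdown and handling (5), 0 of other monoamine cells (1), 1 of midbrain factors, 2 of forebrain factors, 1 of prolactin signalling with 0 Arc-high (4), and 2 of the partner transmitters. Among probes measured on all 8 arrays, which leaves out *Slc6a3* and *Nr4a2*, 0 of the remaining members (3 unadjusted) and 54 of all probes were Arc-high, and the lists gave 4 (breakdown), 5 (forebrain) and 3 and 2 (prolactin signalling). Without scaling 61 probes were. Breakdown and handling gave 1 without scaling, 0 with no filter (4 unadjusted) and 4 with quantile normalization, normexp, raised dim signals or trended moderation, and with no filter the receptors and other monoamine lists gave 2 each.

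Leaving out 1 array gave 3 to 9 probes of the 10 by the F-test (872 to 3786 of all probes) and 1 to 3 Arc-high (26 to 154). For the lists, recomputed after seeing the data, it gave 1 to 3 (cofactor), 0 to 3 (breakdown, 3 to 5 unadjusted), 0 to 1 (other monoamine, 1 to 2 unadjusted), 2 to 3 (midbrain), 8 to 12 (forebrain), 3 to 5 (prolactin signalling), 5 to 9 (partners), 1 (receptors), and 0 to 5 Arc-high prolactin signalling genes (5 to 7 unadjusted). Same-numbered arrays did not pair, with correlations of their deviations from the nucleus means of -0.026 to 0.258. With the replicate number as a block, 6 of the 10 probes and 2081 of all probes differed, and 2 and 79 were Arc-high, while 2 of those 6 and 8 of those 93 differences lost the call. No result met the criteria for a closer look, since no group had 4 arrays and no contrast was measured in a second setting.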
